A study of Homo sapiens with 8 samples.

Results

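The genes described here make up the folding, quality control and stress sensing machinery of the endoplasmic reticulum (ER), the compartment in which secreted and membrane proteins are made. The 49 members were taken by symbol through their Entrez identifiers from the 18478 genes of the authors' table, and all 49 were found. RNA-seq was run on C8161 and A2058, established human melanoma cell lines, each with ATF3 introduced by retrovirus or with a neomycin control. The ATF3 protein is a transcription factor that many cell stresses induce, the UPR among them. The groups were C8161 with ATF3 (3 libraries), C8161 neomycin control (3), A2058 with ATF3 (1) and A2058 neomycin control (1), all grown in DMEM with fetal bovine serum and penicillin/streptomycin. The labels name neither the promoter that drives ATF3 nor whether the transduced cells were clones or pools.

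The authors' table gives RPKM, read numbers scaled by transcript length and by sequencing depth, in 4 columns. Each A2058 column is 1 library and each C8161 column is the authors' combined value for the arm, without SD or n. No spread between replicates can be had from it, so no test was possible for any comparison, and every difference below describes these 4 columns alone. ATF3 itself was at 62.6 RPKM in C8161 cells with ATF3 against 4.76 RPKM in their controls. In A2058 it was at 4.71 RPKM with ATF3 against 1.22 RPKM in the control. The dose of ATF3 message therefore differed between the lines, by 13.3-fold between their transduced arms.

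Of 8 melanocyte lineage markers, all reached 1 RPKM in both A2058 columns, with PMEL at 853 RPKM with ATF3 and 806 RPKM in the control. In C8161 they summed to 1.74 RPKM with ATF3 and 1.60 RPKM in the control, and TYR, which encodes tyrosinase, was listed at 0 in both. The 5 markers of dedifferentiated melanoma summed to 350 and 334 RPKM in these C8161 columns, mostly the receptor AXL at 294 and 280 RPKM. In A2058 with ATF3 and in its control they summed to 16.1 and 14.5 RPKM, with AXL at 12.6 and 11.4 RPKM. Between the controls, 4 of the 5 were higher in C8161 by a log2 ratio of 1 or more. NGFR was lower by as much, at 0.07 and 0.06 RPKM in C8161 and 3.28 and 2.93 RPKM in A2058. Markers of other cell types summed in C8161 with ATF3 and in its control to 38.5 and 30.2 RPKM for leukocytes, nearly all of it CD68, and to 18.9 and 9.39 RPKM for the endothelium, nearly all of it CDH5. The pan-leukocyte marker PTPRC was at 0.25 and 0.24 RPKM there and the endothelial marker PECAM1 at 0.20 and 0.11 RPKM. Fibroblast markers summed to 0.91 and 0.84 RPKM, with DCN listed at 0 in both columns, and keratinocyte markers to 167 and 162 RPKM, mostly SFN. In A2058 with ATF3 and in its control the sums were 41.0 and 39.0 RPKM for leukocytes, 1.0 and 0.81 RPKM for the endothelium, 21.2 and 19.2 RPKM for fibroblasts and 33.1 and 31.5 RPKM for keratinocytes, with KRT14 listed at 0. The part of these marker genes in the results was not tested.

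Proteins enter the ER through the Sec61 channel and are folded there by chaperones, by lectins that read their sugar chains, and by enzymes that form disulphide bonds. Those that fail to fold are passed back to the cytosol for destruction, a route called ER-associated degradation (ERAD). When unfolded proteins build up, the membrane sensors IRE1, PERK and ATF6 start the unfolded protein response (UPR), which raises the production of chaperones and ERAD components, in large part through ER stress response elements in the promoters of their genes.

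Those elements can be read in the promoters. The classical element, ERSE, was searched as CCAAT, then 9 bases of any kind, then CCACG. Its variant ERSE-II was searched as ATTGG, then 1 base of any kind, then CCACG. Both were sought on both strands of RefSeq promoters (GRCh38.p14) that run from 250 bases before to 50 bases after the gene start. Promoters were matched for 45 of the 49 members, without DERL1, DERL3, PDIA3 and SEC24D. An exact ERSE lay in 6 of the 45, those of CALR, CANX, CRELD2, HSP90B1, HSPA5 and XBP1, against 0.0809% of 27195 promoters. ERSE-II lay in 3, those of HERPUD1, HYOU1 and SDF2L1, against 0.0552% of all promoters. Among the 9013 promoters of genes compared in C8161, the shares were 0.155% for ERSE and 0.111% for ERSE-II. Members were chosen for their place in this machinery, whose genes are known for these elements. The excess over all promoters is therefore no independent result.

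The members with either element and the highest ratios in C8161 are shown from 15 bases before the element farthest upstream to the base before the gene start, with the fixed letters of the elements in capitals. They are HERPUD1 (chr16:56932010-56932141, plus strand), HSPA5 (chr9:125241344-125241424, minus strand), HSP90B1 (chr12:103930201-103930409, plus strand) and HYOU1 (chr11:119057206-119057405, minus strand), each written on the strand of its gene.
HERPUD1: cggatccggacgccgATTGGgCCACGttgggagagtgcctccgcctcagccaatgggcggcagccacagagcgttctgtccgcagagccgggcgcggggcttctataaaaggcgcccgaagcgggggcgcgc
HSPA5: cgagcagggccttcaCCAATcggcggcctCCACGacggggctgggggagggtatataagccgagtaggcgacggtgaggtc
HSP90B1: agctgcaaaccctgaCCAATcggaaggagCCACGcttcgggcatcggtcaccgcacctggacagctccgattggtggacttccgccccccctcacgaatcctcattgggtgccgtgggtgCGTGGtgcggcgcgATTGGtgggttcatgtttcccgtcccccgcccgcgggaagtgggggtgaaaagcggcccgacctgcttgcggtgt
HYOU1: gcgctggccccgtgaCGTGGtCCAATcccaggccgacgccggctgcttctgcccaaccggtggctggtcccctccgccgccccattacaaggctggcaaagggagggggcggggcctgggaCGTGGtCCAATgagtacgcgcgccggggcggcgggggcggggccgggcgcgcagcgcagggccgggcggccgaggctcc

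HSPA5 and HERPUD1 hold 1 exact element each, whereas HSP90B1 holds 2 copies of ERSE in opposite orientations and HYOU1 holds 2 copies of ERSE-II. The upstream copy in HYOU1 overlaps a match to the UPR element, searched as TGACGTGG, which was found in 3 member promoters (DNAJC10, HYOU1 and TXNDC11) and in 0.798% of all promoters. The palindromic cyclic AMP response element TGACGTCA, to which ATF3 and its relatives can bind, was found in 1 member promoter, that of CREB3L2, and in 1.98% of all. The AP-1 letters TGANTCA were found in 3 (ATF6B, HSPA5 and SEC61B) and in 7.73% of all. Among promoters of genes compared in C8161 the shares were 0.965% for the UPR element, 3.36% for the cyclic AMP element and 4.37% for AP-1. A match describes these letters in this window and is not a binding site.

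**Figure D1:**
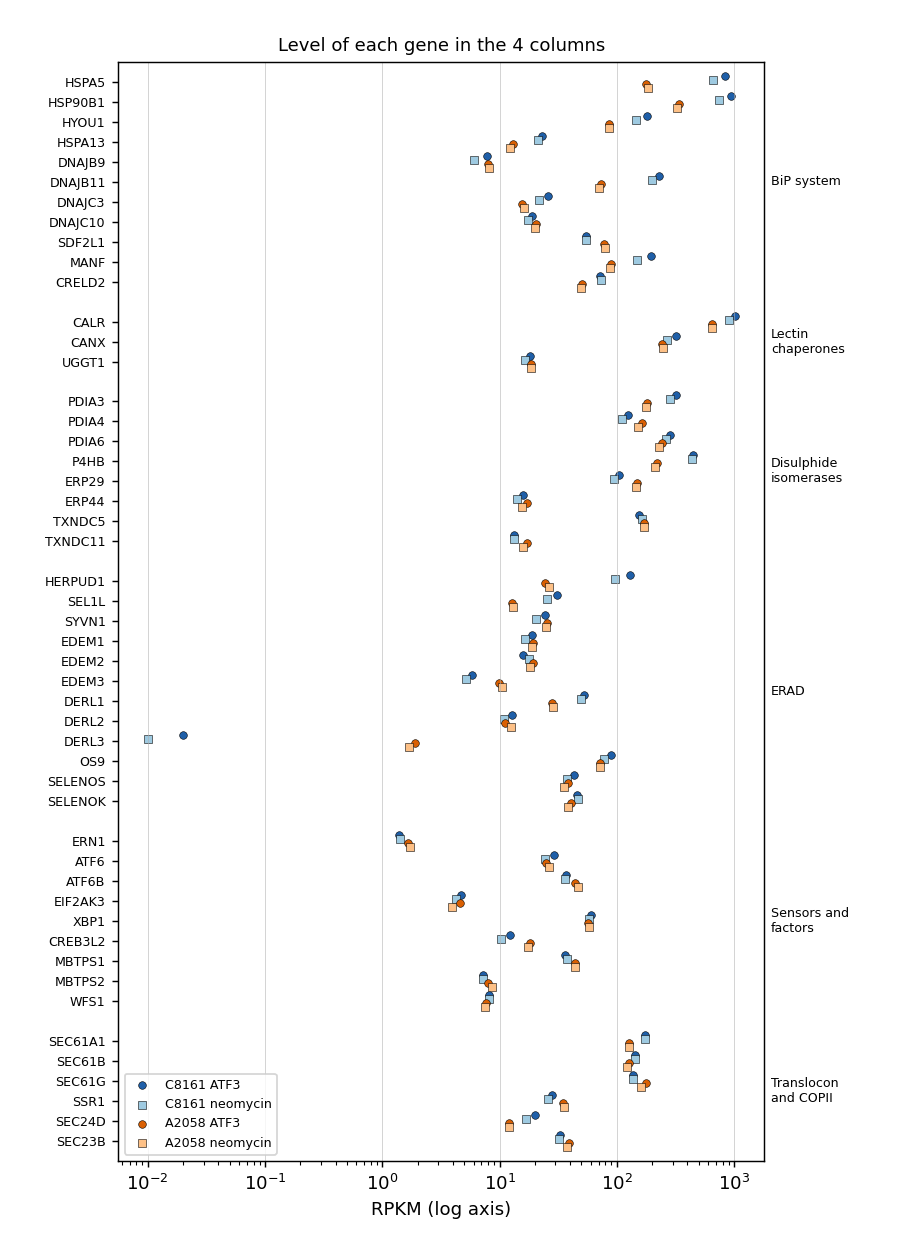
RPKM (log axis) of the 49 genes in the 4 columns, 1 row per gene, grouped by role; circles are ATF3 arms and squares are neomycin controls, C8161 in blue and A2058 in orange. Levels ran from CALR, at 1019 RPKM in C8161 with ATF3, to DERL3, at 0.01 RPKM in the C8161 control.

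The members were abundant. They summed to 6616 RPKM in C8161 with ATF3 and 5792 RPKM in its control, 1.40% and 1.20% of the column totals. In A2058 the sums were 4049 RPKM with ATF3 and 3979 RPKM in the control, 0.850% and 0.846% of the totals. In both C8161 columns 48 members reached 1 RPKM, and in both A2058 columns all 49 did. The exception was DERL3, which encodes a Derlin of secretory tissues, at 0.02 and 0.01 RPKM in C8161 with ATF3 and in its control, and at 1.92 and 1.69 RPKM in A2058.

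The comparison of C8161 cells with ATF3 against their neomycin controls asks which ER genes differ when ATF3 is raised about 13.1-fold. On the log2(RPKM + 1) scale, over genes with at least 1 RPKM in either column, 40 of the 48 members compared were above 0, against 52.0% of all 10941 genes, and 8 were below, against 47.3% of all. A log2 ratio of 0.2 or more, 1.15-fold of RPKM + 1, was reached by 15 members, against 5.33% of all genes. A ratio of −0.2 or less was reached by 0 members, against 6.63% of all genes. The members' median log2 ratio was 0.13, and that of all genes compared was 0.01. Among genes with a mean of at least 100 RPKM, 7 of 16 members reached 0.2, against 6.10% of 771 genes. The size of 0.2 stands in for a test and is small. Values of this size may lie within the spread of replicates, which the combined columns do not show.

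Members of the BiP system, 11 of the 48 compared, made up 7 of these 15. BiP, encoded by HSPA5 (chromosome 9, 125234853 to 125241343, GRCh38), is the HSP70 chaperone of the ER and the partner that holds the sensors inactive. HSPA5 was at 841 RPKM in C8161 with ATF3 against 655 RPKM in the control, 1.28-fold. In A2058 it was at 177 RPKM with ATF3 against 183 RPKM in the control, 0.967-fold. The C8161 levels thus lay well above both A2058 levels, and the ratio was positive in C8161 only. HSP90B1, which encodes the ER form of HSP90 known as GRP94 (chromosome 12, 103930410 to 103947926), was at 943 RPKM in C8161 with ATF3 against 746 RPKM, and at 338 RPKM in A2058 with ATF3 against 328 RPKM. HYOU1, the HSP110-like nucleotide exchange factor of BiP, was at 182 against 146 RPKM in C8161 and at 86.1 against 85.3 RPKM in A2058, in each case with ATF3 against the control. These abundant chaperones had log2 ratios of 0.36, 0.34 and 0.31 in C8161, and of −0.05, 0.05 and 0.01 in A2058.

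MANF, a secreted ER protein that binds BiP (chromosome 3, 51385291 to 51389397), had the highest ratio of the BiP group. It was at 194 RPKM in C8161 with ATF3 against 148 RPKM in the control, a log2 ratio of 0.39, and at 88.9 against 88.0 RPKM in A2058. The J proteins, which deliver clients to BiP and start its ATP cycle, differed among themselves. DNAJB9, a J protein that also restrains IRE1, was low, at 7.82 RPKM in C8161 with ATF3 against 6.03 RPKM, and at 8.0 RPKM in A2058 with ATF3 against 8.09 RPKM. DNAJB11 was at 231 RPKM in C8161 with ATF3 against 198 RPKM, and DNAJC3, also known as an inhibitor of the PERK kinase, at 25.7 against 21.6 RPKM. Their log2 ratios in C8161 were 0.33 for DNAJB9, 0.22 for DNAJB11 and 0.24 for DNAJC3.

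The remaining members of the BiP group lay below the size of 0.2 in C8161. DNAJC10, a J protein that reduces disulphide bonds, was at 18.8 RPKM with ATF3 against 17.6 RPKM (log2 ratio 0.09), and HSPA13, a little studied HSP70 relative, at 23.3 against 21.2 RPKM (0.13). SDF2L1, a component of the ER chaperone complex, was at 55.1 RPKM in each C8161 column, and at 77.2 RPKM in A2058 with ATF3 against 79.8 RPKM. CRELD2, an ER stress-induced EGF-domain protein, was at 72.3 against 72.8 RPKM in C8161 and at 50.1 against 49.5 RPKM in A2058. SDF2L1 and CRELD2, textbook UPR targets that both carry an element in the promoter, had C8161 log2 ratios of 0.00 and −0.01. With the trends in GC content and transcript length removed these were 0.16 for SDF2L1 and 0.03 for CRELD2.

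**Figure D2:**
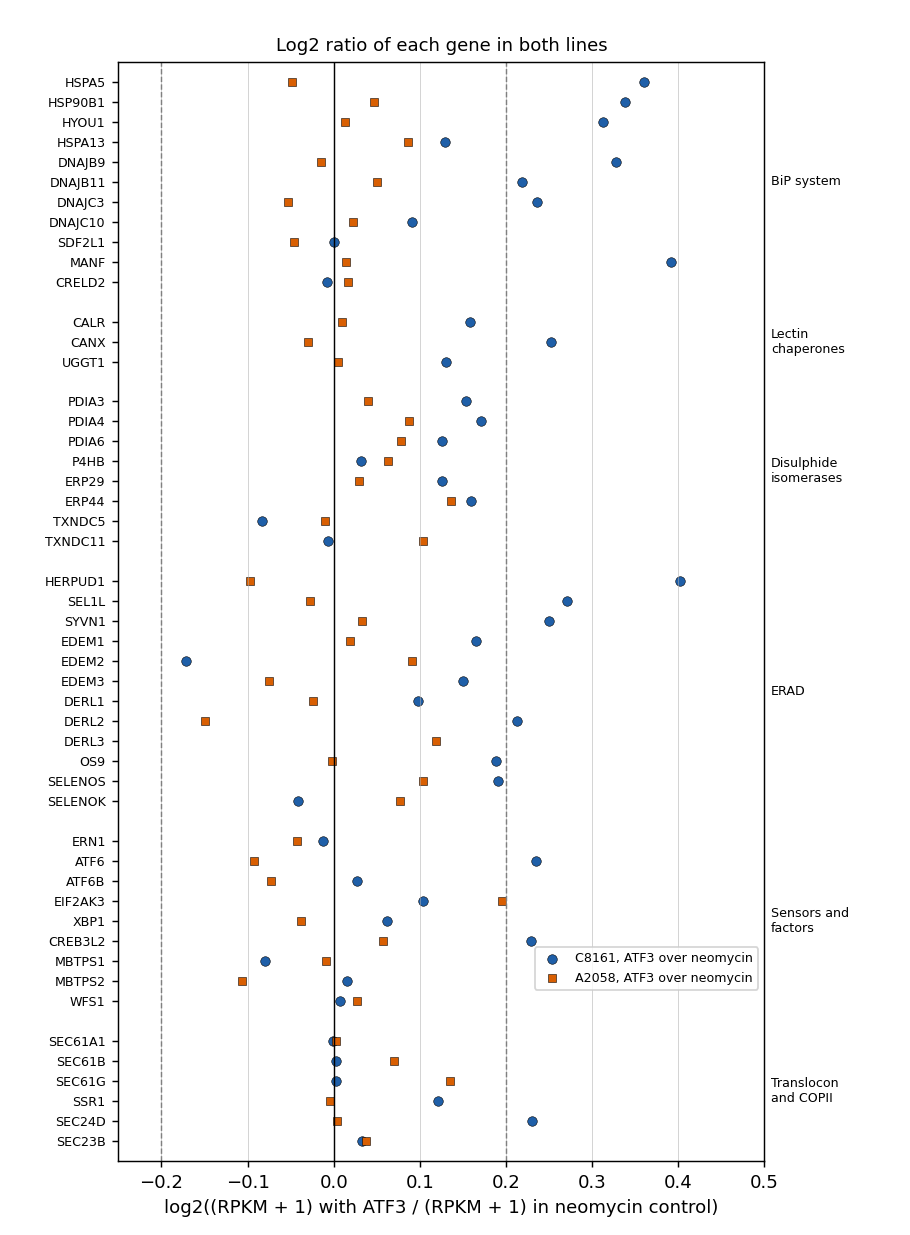
Log2 ratio of RPKM + 1 with ATF3 over the neomycin control for each gene compared, in C8161 (blue circles) and A2058 (orange squares), with dashed lines at the size of 0.2 in each direction. In C8161, 15 genes lie at or beyond the right line and 0 beyond the left; in A2058, 0 lie beyond either, and EIF2AK3 at 0.20 lies just inside.

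The lectin chaperones calreticulin and calnexin bind the trimmed sugar chains of new glycoproteins, and UGGT1 marks unfolded ones for another round. CALR was the most abundant member in every column, at 1019 RPKM in C8161 with ATF3 against 913 RPKM in the control, and at 650.0 RPKM in A2058 with ATF3 against 645 RPKM. CANX was at 319 RPKM in C8161 with ATF3 against 268 RPKM, and at 242 RPKM in A2058 with ATF3 against 247 RPKM. UGGT1 was at 18.1 against 16.4 RPKM in C8161 and at 18.5 against 18.4 RPKM in A2058. All of them were above 0 in C8161, with log2 ratios of 0.16 for CALR, 0.25 for CANX and 0.13 for UGGT1, and only CANX passed 0.2.

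None of the 8 disulphide isomerases and thioredoxin-like proteins reached 0.2 in either line, against 5.33% of all genes in C8161 and 4.23% in A2058. In C8161, 6 of 8 were above 0, against 52.0% of all genes, and in A2058 7 of 8, against 51.3%. PDIA4 had the highest ratio of the group in C8161, at 124 RPKM with ATF3 against 110.4 RPKM (log2 ratio 0.17), and was at 163 against 153 RPKM in A2058. PDIA3, the isomerase that works with the lectin chaperones, was at 319 against 287 RPKM in C8161 and at 181 against 176 RPKM in A2058. PDIA6 was at 286 against 262 RPKM in C8161 and at 243 against 231 RPKM in A2058. P4HB, the classical protein disulphide isomerase and also the beta subunit of prolyl 4-hydroxylase, was nearly level, at 450.1 against 440.3 RPKM in C8161 and at 219.9 against 210.4 RPKM in A2058.

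ERP44, which retains cargo in the early secretory pathway, had the highest ratio of this group in A2058, at 17.3 RPKM with ATF3 against 15.7 RPKM (log2 ratio 0.14), and was at 15.9 against 14.1 RPKM in C8161. ERP29 was at 104 against 95.02 RPKM in C8161 and at 149.9 against 147 RPKM in A2058. TXNDC11 was at 13.2 against 13.3 RPKM in C8161 and at 17.1 against 15.8 RPKM in A2058. TXNDC5 had the lowest ratio of the group in both lines, at 155 against 165 RPKM in C8161 and at 169.8 against 171 RPKM in A2058. Its values are uncertain, since the read-through gene BLOC1S5-TXNDC5 contains 89.5% of the 50-base windows of TXNDC5. No other member shared more than 18.4%, the share of PDIA3.

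Among the ERAD genes, 9 of 11 compared were above 0 in C8161, against 52.0% of all genes, and 4 reached 0.2, against 5.33%. HERPUD1 (chromosome 16, 56932142 to 56944864), a membrane protein that organises the ERAD ligase complex, had the highest ratio of all members. It was at 129 RPKM in C8161 with ATF3 against 97.1 RPKM in the control, a log2 ratio of 0.40. In A2058 it was at 24.4 RPKM with ATF3 against 26.2 RPKM, a log2 ratio of −0.10. The approximate counting SE of the A2058 ratio was 0.10 with the median length of its coding transcripts and 0.06 with its longest transcript, so the ratio lies inside or outside it by the length taken. The ubiquitin ligase SYVN1, also called HRD1, and its adaptor SEL1L form the core of the complex. SEL1L was at 30.9 RPKM in C8161 with ATF3 against 25.5 RPKM (log2 ratio 0.27), and at 12.73 against 12.99 RPKM in A2058. SYVN1 was at 24.4 against 20.4 RPKM in C8161 (0.25) and at 25.3 against 24.7 RPKM in A2058. The fourth was DERL2, a Derlin that takes part in retrotranslocation, at 12.9 against 11.0 RPKM in C8161 (0.21) and at 11.2 against 12.5 RPKM in A2058.

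The EDEM proteins, which trim mannose to mark glycoproteins for ERAD, were split. EDEM1 was at 18.8 RPKM in C8161 with ATF3 against 16.6 RPKM, and EDEM3 at 5.86 against 5.18 RPKM, with log2 ratios of 0.17 and 0.15. EDEM2 was at 15.8 against 17.9 RPKM in C8161, a log2 ratio of −0.17 and the lowest of all members there, and at 19.3 against 18.1 RPKM in A2058. OS9, a lectin that reads the trimmed chains, was at 89.5 against 78.4 RPKM in C8161 (0.19) and at 72.0 against 72.1 RPKM in A2058. The selenoproteins of the complex differed, with SELENOS at 43.2 against 37.7 RPKM in C8161 (0.19) and SELENOK at 45.8 against 47.1 RPKM (−0.04). DERL1 was at 52.7 against 49.2 RPKM in C8161 and at 28.2 against 28.7 RPKM in A2058.

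The sensor genes ERN1 and EIF2AK3 were low in every column, whereas ATF6 and ATF6B lay within the range of the less abundant chaperones. ERN1, which encodes IRE1, was the lowest of them, at 1.39 RPKM in C8161 with ATF3 against 1.41 RPKM, and at 1.66 RPKM in A2058 with ATF3 against 1.74 RPKM. EIF2AK3, which encodes PERK, was at 4.65 against 4.26 RPKM in C8161 and at 4.61 against 3.90 RPKM in A2058. Its A2058 log2 ratio of 0.20, or 0.195 before rounding to 2 decimals, was the highest of any member in that line. ATF6 was at 29.2 RPKM in C8161 with ATF3 against 24.6 RPKM (log2 ratio 0.24), and at 24.7 RPKM in A2058 with ATF3 against 26.4 RPKM (−0.09). Its paralogue ATF6B was at 36.7 against 36.0 RPKM in C8161 and at 44.1 against 46.4 RPKM in A2058. Among the sensors, ATF6 was thus the only one to reach 0.2 in C8161.

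XBP1, the transcription factor made from an mRNA that IRE1 splices, was at 60.5 RPKM in C8161 with ATF3 against 57.9 RPKM, and at 56.6 RPKM in A2058 with ATF3 against 58.1 RPKM. The table gives 1 value per gene and does not separate spliced from unspliced XBP1. CREB3L2, a membrane-bound relative of ATF6 that supports secretory capacity, was at 12.3 against 10.4 RPKM in C8161 (log2 ratio 0.23) and at 18.3 against 17.6 RPKM in A2058. The Golgi proteases that release ATF6 lay near or below 0. MBTPS1 was at 35.9 against 38.0 RPKM in C8161 and at 43.9 against 44.2 RPKM in A2058. MBTPS2 was at 7.26 against 7.17 RPKM in C8161 and at 7.92 against 8.60 RPKM in A2058. WFS1, the ER membrane protein wolframin, was at 8.14 against 8.09 RPKM in C8161 and at 7.62 against 7.46 RPKM in A2058.

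The Sec61 channel genes were level in C8161. SEC61A1 was at 172.3 and 172.4 RPKM there with ATF3 and in the control, SEC61B at 142.0 and 141.7 RPKM, and SEC61G at 137.6 and 137.4 RPKM. SEC61G had the highest ratio of the group in A2058, at 176 against 159.9 RPKM (log2 ratio 0.13). SSR1, a subunit of the translocon-associated TRAP complex, was at 28.3 against 25.9 RPKM in C8161 and at 35.0 against 35.1 RPKM in A2058. The COPII coat carries folded cargo out of the ER. Its cargo adaptor SEC24D was at 20.0 against 16.9 RPKM in C8161 (0.23) and at 12.1 against 12.0 RPKM in A2058, and SEC23B was at 33.0 against 32.2 RPKM in C8161 and at 38.8 against 37.8 RPKM in A2058. SEC24D alone of these 6 genes reached 0.2 in C8161.

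**Figure D3:**
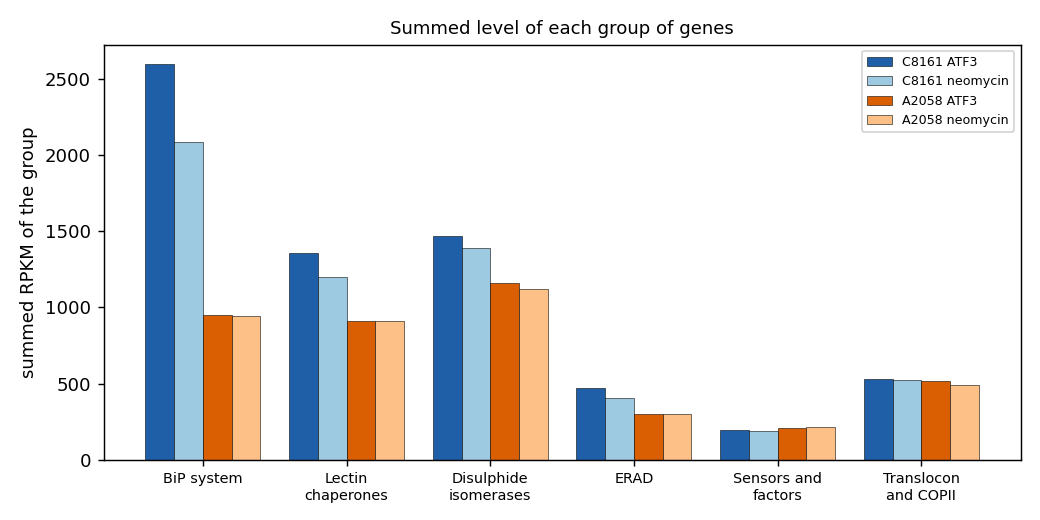
Summed RPKM of each of the 6 groups of genes in the 4 columns, bars starting at 0. The BiP system stands at 2595 RPKM in C8161 with ATF3 against 2088 RPKM in its control, whereas the sensors and the translocon differ little between the C8161 arms. In A2058 the BiP system stands at 949 against 941 RPKM, and the translocon and COPII genes at 516 against 493 RPKM.

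Summed by role, the largest difference lay in the BiP system, at 2595 RPKM in C8161 with ATF3 against 2088 RPKM in the control. The ERAD genes summed to 468 against 406 RPKM, the lectin chaperones to 1356 against 1197 RPKM and the disulphide isomerases to 1468 against 1387 RPKM. The sensors and their factors summed to 196 against 188 RPKM, and the translocon and COPII genes to 533 against 526 RPKM. A summed RPKM follows the most abundant genes. The median log2 ratios, which weight each gene alike, were 0.24 for the BiP system, 0.19 for ERAD, 0.16 for the lectins, 0.13 for the isomerases, 0.03 for the sensors and 0.02 for the translocon and COPII genes.

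The C8161 ratios varied with base composition. Taken over 10861 genes of these 2 columns, the ratio had a Spearman's rho of −0.42 with the GC content of the transcript and of 0.20 with its length. Genes of a column share its library, so these describe the columns only. The median GC content was 45.9% for the members and 47.9% for all genes compared. With both trends removed, 11 members remained at 0.2 or more, against 5.30% of all genes, and the members' median was 0.11. ATF6 (0.18), DNAJB11 (0.17), DNAJC3 (0.18) and DERL2 (0.16) then lay below the size. HERPUD1 (0.39), MANF (0.42), HYOU1 (0.34), HSPA5 (0.33) and HSP90B1 (0.30) stayed above it.

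**Figure D4:**
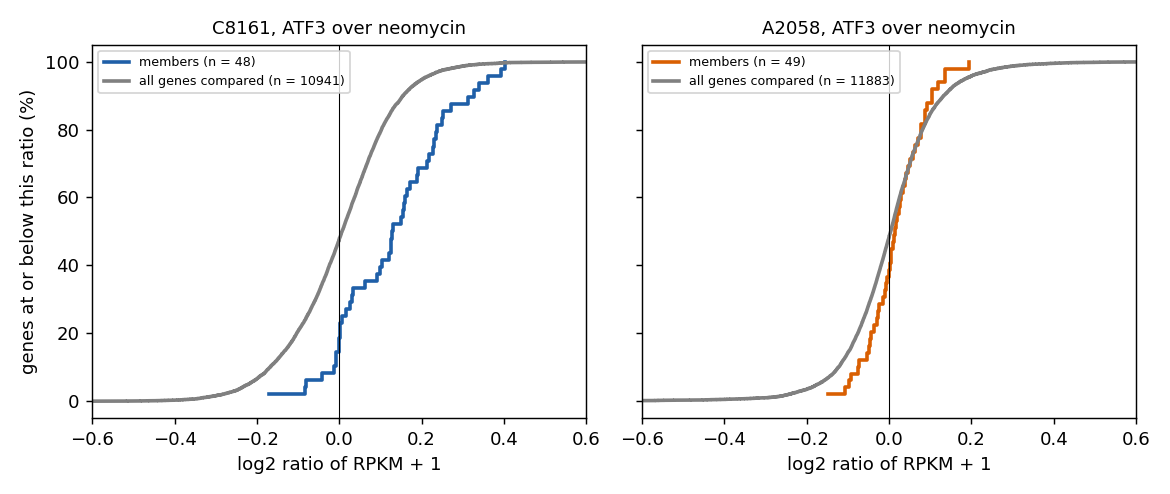
Cumulative share of genes (%) by log2 ratio of RPKM + 1 in C8161 and in A2058, for the members (48 and 49 genes, coloured) and for all genes compared (10941 and 11883 genes, grey). The coloured curve lies right of the grey one in C8161, with medians of 0.13 and 0.01; in A2058 the medians are 0.01 and 0.00.

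The comparison of the A2058 library with ATF3 against its control asks the same question at a lower ATF3 level. Here 30 of 49 members were above 0, against 51.3% of all 11883 genes, and 19 were below, against 48.1% of all. A log2 ratio of 0.2 or more was reached by 0 members, against 4.23% of all genes, and one of −0.2 or less by 0 members, against 3.51% of all genes. The share higher fell with level. Among genes with a mean of at least 10 RPKM, 0 of 43 members reached 0.2, against 1.48% of 6532 genes. At a mean of at least 100 RPKM it was 0 of 13 members, against 0.12% of 806 genes. Over all 49 members the ratios ran between −0.15 for DERL2 and 0.20 for EIF2AK3. The spacing of low RPKM values in A2058 gave a rough depth of 17900000 reads for the ATF3 library and of 18200000 reads for its control library. The strength of that spacing, 1 for a perfect fit, was 0.338 with ATF3 and 0.409 in the control. Its medians over the range searched were 0.164 and 0.154. In C8161, where no depth was used, the peaks were 0.349 with ATF3 and 0.339 in the control. At the A2058 depths, and with the median length of a gene's coding transcripts, the approximate counting SE of a member's log2 ratio ran from 0.018 for HSPA5 to 0.355 for DERL3. With the longest transcript it ran from 0.014 for CALR to 0.191 for DERL3. HSPA13, at 13.1 against 12.3 RPKM, had the highest ratio of the BiP group, 0.09, and DNAJC3, at 15.7 against 16.3 RPKM, the lowest, −0.05. Counting error is only a part of the spread between cultures, which 1 library per arm does not show.

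The difference between the lines was taken for each gene as the C8161 log2 ratio minus the A2058 log2 ratio, and each line has its own control column. It was above 0 in 35 of 48 members, against 50.6% of genes, and below in 13, against 49.4%. It reached 0.2 or more in 14 members, against 9.99% of 10331 genes compared in both lines, and −0.2 or less in 1 member, EDEM2, against 11.6% of genes. The median difference was 0.11 for the members and 0.00 for all genes. HERPUD1 had the highest difference, 0.50, followed by HSPA5 at 0.41 and MANF at 0.38. The signs were positive in both lines for 24 members, positive in C8161 and negative in A2058 for 16, the reverse for 5, and negative in both for 3. These sign pairs were not counted over all genes, of which 52.0% were above 0 in C8161 and 51.3% in A2058. The differences between the lines were not tested, and the lines also differed in ATF3 level.

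**Figure D5:**
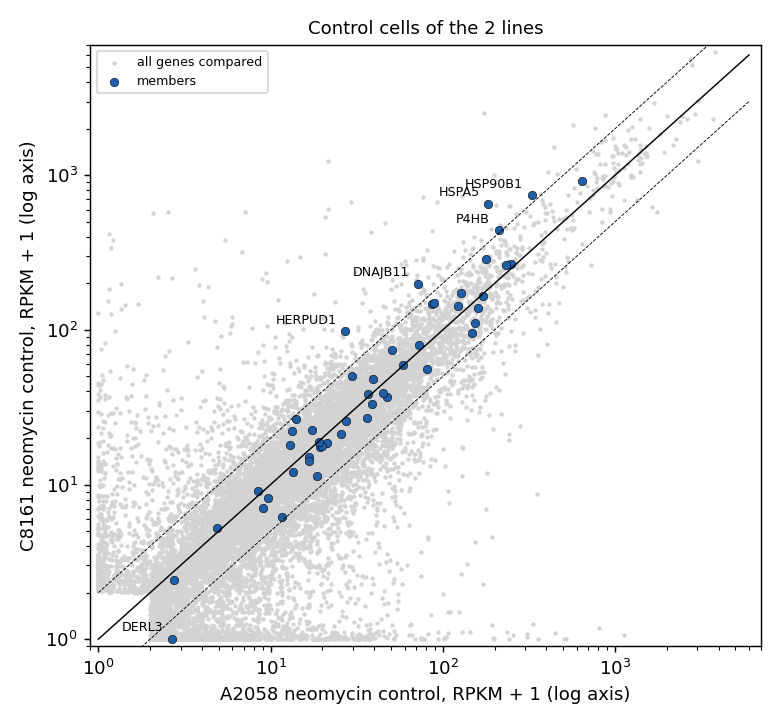
RPKM + 1 in the C8161 neomycin control (vertical, log axis) against that in the A2058 neomycin control (horizontal, log axis) for the 49 members (blue) and all 12372 genes compared (grey); the solid line marks equal levels and the dashed lines a log2 ratio of 1 in each direction. HERPUD1, HSPA5, DNAJB11, HSP90B1 and P4HB lie above the upper dashed line and DERL3 below the lower one.

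The neomycin controls of the lines were compared as well. ATF3 message was present in both, at 4.76 RPKM in C8161 controls and 1.22 RPKM in A2058 controls. C8161 controls were higher than A2058 controls by a log2 ratio of 1 or more for 5 of 49 members, against 9.36% of 12372 genes, and lower by as much for 1 member, DERL3, against 20.7% of genes. At any size, 24 members were above 0, against 40.7% of genes, and 25 below, against 59.3%. The count of members higher by 1 or more is thus close to that of genes in general. HERPUD1 was 3.71-fold higher, at 97.1 RPKM in C8161 controls against 26.2 RPKM in A2058 controls. HSPA5 was 3.58-fold higher, at 655 against 183 RPKM, DNAJB11 2.80-fold, at 198 against 70.8 RPKM, HSP90B1 2.28-fold, at 746 against 328 RPKM, and P4HB 2.09-fold, at 440.3 against 210.4 RPKM. The members' median log2 ratio between lines was −0.0039, and that of all genes −0.19.

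Other members were lower in C8161 controls. SDF2L1 was at 55.1 RPKM in C8161 controls against 79.8 RPKM in A2058 controls, ERP29 at 95.02 against 147 RPKM, PDIA4 at 110.4 against 153 RPKM and EDEM3 at 5.18 against 10.6 RPKM. The sensors ATF6 (24.6 against 26.4 RPKM) and EIF2AK3 (4.26 against 3.90 RPKM) and the factor XBP1 (57.9 against 58.1 RPKM) were close between the lines. ATF6B was at 36.0 RPKM in C8161 controls against 46.4 RPKM in A2058 controls, 0.775-fold, with a log2 ratio of −0.36. ERN1, at 1.41 against 1.74 RPKM, was 0.810-fold. Its log2 ratio of RPKM + 1 was −0.19, a scale that understates differences of low genes. Of the 5 members higher in C8161 controls, HERPUD1, HSPA5, DNAJB11 and HSP90B1 were also among the 15 that were higher with ATF3 in C8161, whereas P4HB was not. Both comparisons use the C8161 control column, so they are not independent. The share of all genes that met both sizes was not counted. Taken singly, 9.36% of all genes were higher by 1 or more in C8161 controls. With ATF3, 5.33% of all genes reached 0.2 in C8161. A link between the comparisons was not tested. In the transduced arms HERPUD1 was 5.27-fold and HSPA5 4.75-fold higher in C8161 with ATF3 than in A2058 with ATF3.

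The 9 members with an exact ERSE or ERSE-II had a median log2 ratio of 0.25 in C8161 and 5 of them reached 0.2, with values from −0.01 for CRELD2 to 0.40 for HERPUD1. The 36 promoters without either held 9 members that reached 0.2 and had a median of 0.13, with MANF the highest at 0.39. The ranges overlapped. Of all genes compared in C8161, 5.33% reached 0.2. The share among genes outside the members whose promoters hold either element was not counted. A link between the elements and the ratios was not tested. In A2058 the medians were −0.03 for the 9 and 0.02 for the 36.

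Further lists of genes of the same compartment had lower medians in C8161 than the 0.13 of the members. Of all genes compared there, 5.33% reached 0.2 and 6.63% reached −0.2. Of 40 further ER folding and oxidation genes, 2 reached 0.2 and 1 reached −0.2, with a median of 0.04. ERO1B, an oxidase that recharges the isomerases, was at 3.83 RPKM in the ATF3 arm against 2.97 RPKM, and CNPY2 was at 50.7 against 60.4 RPKM. The other was CALU, at 109 against 93.9 RPKM, named after its value was seen. Of 29 further ERAD genes compared, 1 was higher, the ligase gene RNF139 (25.4 against 21.8 RPKM), and 1 lower, UBL4A (20.8 against 24.1 RPKM), with a median of 0.03. Of 28 further translocon, glycosylation and signal peptidase genes, 3 reached 0.2 and 0 reached −0.2, with a median of 0.06. They were the signal peptidase subunit gene SEC11C (38.0 against 29.9 RPKM), SEC63 (40.1 against 34.1 RPKM), a J protein that recruits BiP to the channel, and OSTC (138 against 119.8 RPKM), the last named after its value was seen. Of 22 further COPII and early secretory genes, 0 reached 0.2 and 1 reached −0.2, the coatomer gene COPE (113 against 138.5 RPKM), with a median of 0.06; TMED10 was at 66.0 against 57.7 RPKM.

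In the PERK and ATF4 output list 4 of 13 genes reached 0.2 in C8161 and 1 reached −0.2, with a median of 0.16. The shares of all genes compared were 5.33% and 6.63%. The phosphatase subunit gene PPP1R15A was at 100.9 RPKM in the ATF3 arm against 76.7 RPKM, and ATF5 at 23.7 against 19.6 RPKM. DDIT3 (53.3 against 45.6 RPKM), which encodes the transcription factor CHOP, DDIT4 (27.6 against 23.1 RPKM) and the lower gene CEBPB (26.9 against 31.9 RPKM) were named after their values were seen. Of 19 cytosolic and mitochondrial chaperones, 1 reached 0.2, HSPA1A (175 against 147 RPKM), and 1 reached −0.2, TRAP1 (55.0 against 64.3 RPKM), with a median of 0.06. In A2058 the medians of these lists lay between −0.0039 for the chaperones outside the ER and 0.04 for the PERK and ATF4 output. There 1 of 39 folding genes compared reached 0.2 and 1 reached −0.2, and 2 of 31 ERAD genes reached 0.2 and 0 reached −0.2, while no gene of the other pathway lists reached either size. Of all genes compared in A2058, 4.23% reached 0.2 and 3.51% reached −0.2.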

How the data were processed

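Values came from the authors' deposited table, whose 4 value columns are RPKM per the file headers, for 8 libraries. Bowtie2, RSEM and hg38 appear, with no version, per the submitters' processing notes. The annotation, filters, strand setting and the way C8161 libraries were combined (means or pooled reads) are not stated in these sources. RPKM were used as deposited. Symbols (18156 of 18478 identifiers), coordinates and promoters came from RefSeq GRCh38.p14, and GC content and length, for the trends, from the longest GENCODE 29 transcript. Python 3.11.15, numpy 2.4.6, pandas 2.3.3 and matplotlib 3.10.9 were used.

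Each ratio is log2(RPKM + 1) with ATF3 minus that of the neomycin control, or C8161 minus A2058 between controls, which understates differences of low genes, over genes with at least 1 RPKM in either column. With 1 value per arm no test across genes was run. Counts past 0.2, or past 1 between lines, were set beside those of all genes compared. Depth was estimated from genes with a lone transcript of 400 to 1500 bases, as the number of reads within a fixed range at which value times length fell closest to whole numbers. In C8161 the best estimates lay at the low end of that range and were not used, so the depth of those columns is unknown. Counting SEs in A2058 cover counting error only and take as length the median over a gene's protein-coding GENCODE 29 transcripts, or its longest transcript, an alternative chosen after seeing the data.

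The members and gene lists were chosen with earlier results of these data known. The genes named were ATF3, the textbook UPR genes, the sensors, the highest and lowest ratio in each role and line, and the 5 largest differences between control lines; members were then described by role, and up to 2 genes of each further list were named by size. Protein sequences were not used here.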

Additional observations from a re-analysis of the deposited data

Results flagged for a closer look

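In 8 members the C8161 ratio was 0.2 or more while the A2058 ratio was below 0. The share of all genes that met both was not counted, so how common the pattern is remains unknown. Taken singly, 5.33% of all genes reached 0.2 in C8161 and 48.1% were below 0 in A2058. The C8161 minus A2058 log2 ratio was 0.50 for HERPUD1, 0.41 for HSPA5, 0.36 for DERL2, 0.34 for DNAJB9, 0.33 for ATF6, 0.30 for SEL1L, 0.29 for DNAJC3 and 0.28 for CANX. The difference between the lines was not tested, since each arm of each line has 1 value. With the trends in GC content and transcript length removed, 5 members met this, HSPA5, DNAJB9, CANX, HERPUD1 and, newly, MANF. DERL2, ATF6 and DNAJC3 then lay below 0.2 in C8161, and SEL1L lay above 0 in A2058, at 0.01.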

How the results depend on the processing

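Each choice was changed in turn, and none of the 15 C8161 ratios that had reached 0.2 changed sign under the pseudocount, minimum level, normalization, centring and trend alternatives. In C8161, 29 members were higher and 1 lower at a size of 0.1 (20.7% of all genes higher), and 6 were higher at 0.3 (1.35%). In A2058, 1 member, EIF2AK3, was higher with a pseudocount of 0.1 RPKM (6.51% of all genes higher) and 1 with quantile normalization (4.74%), whose median was −0.0018. At a size of 0.1, 6 members were higher in A2058, against 15.3% of all genes, and 2 lower. Between the control lines, 12 were higher (19.8% of all genes higher) and 5 lower at a size of 0.5. At a size of 2, 0 were higher (3.31%) and 0 lower. The number lower was 2 with a pseudocount of 0.1 RPKM, 0 with a mean of at least 5 RPKM and 2 with the GC and length trends removed. The median between control lines was 0.0365 with that minimum and also without TXNDC5, 0.0674 with quantile normalization, 0.1814 with ratios centred on all genes and 0.0103 with trends removed, so its sign depends on the setting. For the difference between the lines, 24 were higher (26.5% of all genes higher) and 4 lower at a size of 0.1. At 0.3, 6 were higher (3.04%) and 0 lower. With trends removed, the number lower was 0. Shares of all genes lower were not taken at these settings. The cause of these changes in counts and medians was not tested, apart from the sizes themselves.

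No paired analysis was possible because the C8161 values are combined over libraries and A2058 has 1 library per arm. For the same reason a replicate block and leaving out replicates were not run. The depth of the C8161 columns is unknown, and the lines differ in ATF3 level and in number of libraries, which cannot be told apart from the line.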
